A study of Mus musculus with 63 samples.

Results

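The genes described are 10 antioxidant genes of the mouse, most of them known targets of the transcription factor Nrf2 (gene symbol Nfe2l2): Prdx1, Prdx6, Gpx1, Gpx4, Srxn1, Txnrd1, Gclm, Slc7a11, Hmox1 and Nqo1. They were chosen by symbol from the 55291 symbols of the count tables, each stood for 1 annotated gene, and all 10 passed the filter on low counts in all 15 comparisons. These genes and the other gene lists were chosen with earlier results of these data known. Shares of them called, given beside those of all genes, are thus a description and not a test of enrichment. RNA-seq counts came from organotypic tissue cultures that hold the hippocampus with its entorhinal cortex. Synpo+/+ cultures were made from C57BL/6J mice. Synpo-/- cultures were made from B6.129-Synpotm1Mndl/Dllr mice, a line with a targeted allele of synaptopodin (Synpo, an actin-associated protein of the spine apparatus) that had been back-crossed to C57BL/6J at least 10 times. All cultures were prepared at postnatal day 3 to 5, from mice of either sex, and matured for at least 18 days in vitro. In lesioned cultures the entorhinal cortex had been cut off (entorhinal cortex lesion, ECL), which severs the perforant path to dentate gyrus (DG) and CA3, and tissue was taken 3 days later. The 39 regional libraries were made from 1 DG or CA3 area of 1 culture each. DG of Synpo+/+ cultures had 4 control and 7 ECL libraries, and CA3 of these cultures had 2 control and 3 ECL libraries. In Synpo-/- cultures DG was covered by 7 control and 4 ECL libraries and CA3 by 6 of each. The other 24 libraries came from lysates of pooled cultures (6 by the labels, 5 or 6 elsewhere in the study's description), either as input RNA or as RNA precipitated with an anti-synaptopodin antibody (coIP). There were 5 control and 5 ECL libraries per fraction in Synpo+/+, and 2 libraries per fraction in Synpo-/-, whose labels give no lesion state.

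Nrf2 is kept low by Keap1, an adaptor that marks it for degradation. Oxidants and electrophiles modify cysteines of Keap1, after which Nrf2 accumulates, pairs with small Maf proteins and binds antioxidant response elements (AREs) near its target genes. In brain tissue this pathway is known to be more active in astrocytes than in neurons, and several targets also answer to other factors, such as Bach1 at Hmox1 and Atf4 at Slc7a11.

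Positions are those of the GENCODE annotation behind the counts (GRCm38), and the counts cover the merged exons of each gene. The thiol peroxidases are Prdx1 (chromosome 4, 116685544 to 116700822, plus strand), which is recycled by thioredoxin, and Prdx6 (chromosome 1, 161240112 to 161251219, minus strand), which reduces hydrogen peroxide and phospholipid hydroperoxides. The selenium-dependent peroxidases are Gpx1 (chromosome 9, 108338903 to 108340343, plus strand), the main glutathione peroxidase of the cytosol, and Gpx4 (chromosome 10, 80047166 to 80056439, plus strand), which repairs lipid peroxides and guards against ferroptosis. Srxn1 (chromosome 2, 152105516 to 152111376, plus strand) encodes sulfiredoxin, which reactivates overoxidised peroxiredoxins, and Txnrd1 (chromosome 10, 82833951 to 82897712, plus strand) the cytosolic thioredoxin reductase. Glutathione supply is represented by Gclm (chromosome 3, 122245557 to 122270732, plus strand), the modifier subunit of glutamate-cysteine ligase, and Slc7a11 (chromosome 3, 49892526 to 50443614, minus strand), the cystine-glutamate exchanger. Hmox1 (chromosome 8, 75093621 to 75100589, plus strand) encodes the inducible haem oxygenase, and Nqo1 (chromosome 8, 107388225 to 107403206, minus strand) a quinone reductase. Reads were counted without regard to strand, and 540 exon bases of Gclm are shared with Gm17494 and Gm6061, so part of its counts is uncertain. Possible copies, found by symbol only, are annotated for Gpx4 (Gpx4-ps1 and Gpx4-ps2), Prdx1 (Prdx1-ps) and Prdx6 (Prdx6-ps2 and Prdx6b), and reads of these genes may be split between copies. Their sequences were not compared, and copies under other names were not searched for.

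Promoter windows of RefSeq (GRCm38.p6, 250 bases before to 50 after a start site, 300 bases) were found for 8 of the 10 genes, and Prdx6 and Hmox1 had no entry. The 13 windows were searched on both strands for the ARE core TGACNNNGC, for the AP-1 site TGAGTCA, which can lie inside an ARE, and for the Atf4-type site TGATGNAA. Of all 32851 windows of this length, 12.4% held the ARE core, 5.2% the AP-1 site and 3.97% the Atf4-type site. Windows of 6 genes are shown because they differ in these letters while the genes differ in their lesion and region values, with each match in capitals and the sequence read along the gene's own strand. Prdx1 (chr4:116685349-116685648, plus strand) held a reverse ARE core from position -133 that overlaps an AP-1 site from position -131, and a further AP-1 site from position -237. Srxn1 (chr2:152105274-152105573, plus strand) held AP-1 sites from positions -102 and -45 and a reverse ARE core from position 29. Gclm (chr3:122245307-122245606, plus strand) held a reverse ARE core from position -134, and the second of 3 windows of Txnrd1 (chr10:82858956-82859255, plus strand) held one from position -92. Slc7a11 (chr3:50443564-50443863, minus strand) held a pair of Atf4-type sites from positions -66 and -47, and Gpx1 (chr9:108338830-108339129, plus strand) held none of these letters. The windows of Gpx4 and Nqo1 held none either. Sequence outside these windows was not searched, so a gene without a match here may have such sites elsewhere. Whether the matches bear on the lesion or region values was not tested.
Prdx1: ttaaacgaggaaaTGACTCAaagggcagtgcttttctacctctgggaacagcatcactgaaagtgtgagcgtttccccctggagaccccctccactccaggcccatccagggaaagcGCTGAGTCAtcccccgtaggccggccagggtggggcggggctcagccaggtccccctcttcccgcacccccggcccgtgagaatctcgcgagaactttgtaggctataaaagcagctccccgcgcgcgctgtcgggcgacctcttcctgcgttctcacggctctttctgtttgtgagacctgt
Srxn1: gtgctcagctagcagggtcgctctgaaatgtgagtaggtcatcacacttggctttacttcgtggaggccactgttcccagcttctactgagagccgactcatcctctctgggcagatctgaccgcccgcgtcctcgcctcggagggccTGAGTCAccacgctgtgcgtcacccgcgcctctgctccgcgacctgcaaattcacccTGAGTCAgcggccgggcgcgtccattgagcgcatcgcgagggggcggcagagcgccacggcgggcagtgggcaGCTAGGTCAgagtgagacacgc
Gclm: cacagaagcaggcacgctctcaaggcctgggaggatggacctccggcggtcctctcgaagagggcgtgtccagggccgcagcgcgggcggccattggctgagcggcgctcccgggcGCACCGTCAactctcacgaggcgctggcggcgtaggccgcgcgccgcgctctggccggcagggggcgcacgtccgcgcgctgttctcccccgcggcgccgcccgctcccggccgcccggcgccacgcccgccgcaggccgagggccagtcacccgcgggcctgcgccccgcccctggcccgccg
Txnrd1: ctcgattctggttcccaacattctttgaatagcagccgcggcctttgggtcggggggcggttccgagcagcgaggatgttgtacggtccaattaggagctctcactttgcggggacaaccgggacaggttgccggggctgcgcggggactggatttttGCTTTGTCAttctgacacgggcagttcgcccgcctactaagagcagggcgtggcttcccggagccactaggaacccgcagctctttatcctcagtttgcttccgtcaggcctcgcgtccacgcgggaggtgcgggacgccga
Slc7a11: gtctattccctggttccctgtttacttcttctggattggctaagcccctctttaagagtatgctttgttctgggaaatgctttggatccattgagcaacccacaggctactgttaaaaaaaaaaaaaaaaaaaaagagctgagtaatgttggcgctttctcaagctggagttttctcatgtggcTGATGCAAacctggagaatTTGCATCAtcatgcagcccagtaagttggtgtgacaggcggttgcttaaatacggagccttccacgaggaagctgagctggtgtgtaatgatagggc
Gpx1: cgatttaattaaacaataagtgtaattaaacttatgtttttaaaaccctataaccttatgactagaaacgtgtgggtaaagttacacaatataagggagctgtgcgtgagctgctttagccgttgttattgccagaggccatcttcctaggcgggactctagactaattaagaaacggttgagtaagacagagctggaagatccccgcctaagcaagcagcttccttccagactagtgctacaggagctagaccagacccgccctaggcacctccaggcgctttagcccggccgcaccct

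Total counts ranged from 14055930 to 46043990 in the regional libraries and from 11601154 to 53682143 in the coIP and input libraries. Levels are given as counts relative to library totals (CPM) scaled by TMM factors within each experiment, and a gene is called changed at an adjusted p under 0.05 by edgeR's quasi-likelihood test over all genes. Counts of the targeted gene, Synpo, did not separate the genotypes by a loss. It had 21.1 to 36.9 CPM in the Synpo+/+ regional libraries and 32.3 to 71.1 CPM in the Synpo-/- ones, and 17.9 to 48.7 CPM and 24.9 to 31.3 CPM in the coIP and input libraries, so genotypes are given by label throughout. Prox1, the granule cell factor, had 123 to 235 CPM in all DG libraries but Synpo+/+ DG ECL replicate 5, which had 12.7 CPM, within the 11.2 to 38.97 CPM of CA3. The members' lesion tests in Synpo+/+ DG are also given without this library, as are the DG interactions of Gpx1, Prdx6, Hmox1 and Prdx1. Levels, markers, other gene lists and correlations keep it. Xist counts were above Y-linked counts in all 6 Synpo+/+ regional controls, whereas the Synpo+/+ ECL libraries were mixed in this respect. Control and ECL libraries labelled Synpo-/- were mixed too, in both regions. A term for sex was fitted only in the regional lesion comparisons. Genotype differences and interactions were thus not adjusted for sex. The labels do not say which cultures came from the same animal, so p-values measure the spread between cultures. For the input and coIP libraries they measure the spread between pools of cultures. The main tests of coIP against input did not pair libraries of the same lysate.

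Per kilobase of exon, the peroxidases were by far the most abundant members. In Synpo+/+ DG controls the mean levels were 205 ± 42.3 CPM per kb for Prdx1, 186 ± 39.7 for Prdx6, 136 ± 21.2 for Gpx4 and 79.1 ± 13.1 for Gpx1 (SD, n = 4 throughout). The other members followed with 12.2 ± 1.11 CPM per kb for Gclm, 9.66 ± 1.09 for Srxn1, 6.97 ± 2.00 for Hmox1, 5.38 ± 0.840 for Txnrd1, 5.35 ± 1.33 for Nqo1 and 1.89 ± 0.411 for Slc7a11. In this order the ranges of Prdx1 and Prdx6, of Prdx6 and Gpx4, and of each pair of neighbours from Srxn1 down to Nqo1 overlapped. Gpx4 and Gpx1, Gpx1 and Gclm, Gclm and Srxn1, and Nqo1 and Slc7a11 were apart. After the lesion the order in Synpo+/+ DG was different: Prdx6 led with 484 ± 102 CPM per kb, Gpx1 with 211 ± 29.3 stood above Gpx4 with 197 ± 51.5, and Hmox1 with 13.03 ± 1.92 stood beside Gclm with 12.9 ± 0.879 (n = 7 each). The ranges of Prdx6 and Prdx1, of Gpx1 and Gpx4 and of Hmox1 and Gclm overlapped there. Slc7a11 was the lowest member per kilobase in all 14 groups.

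**Figure D1:**
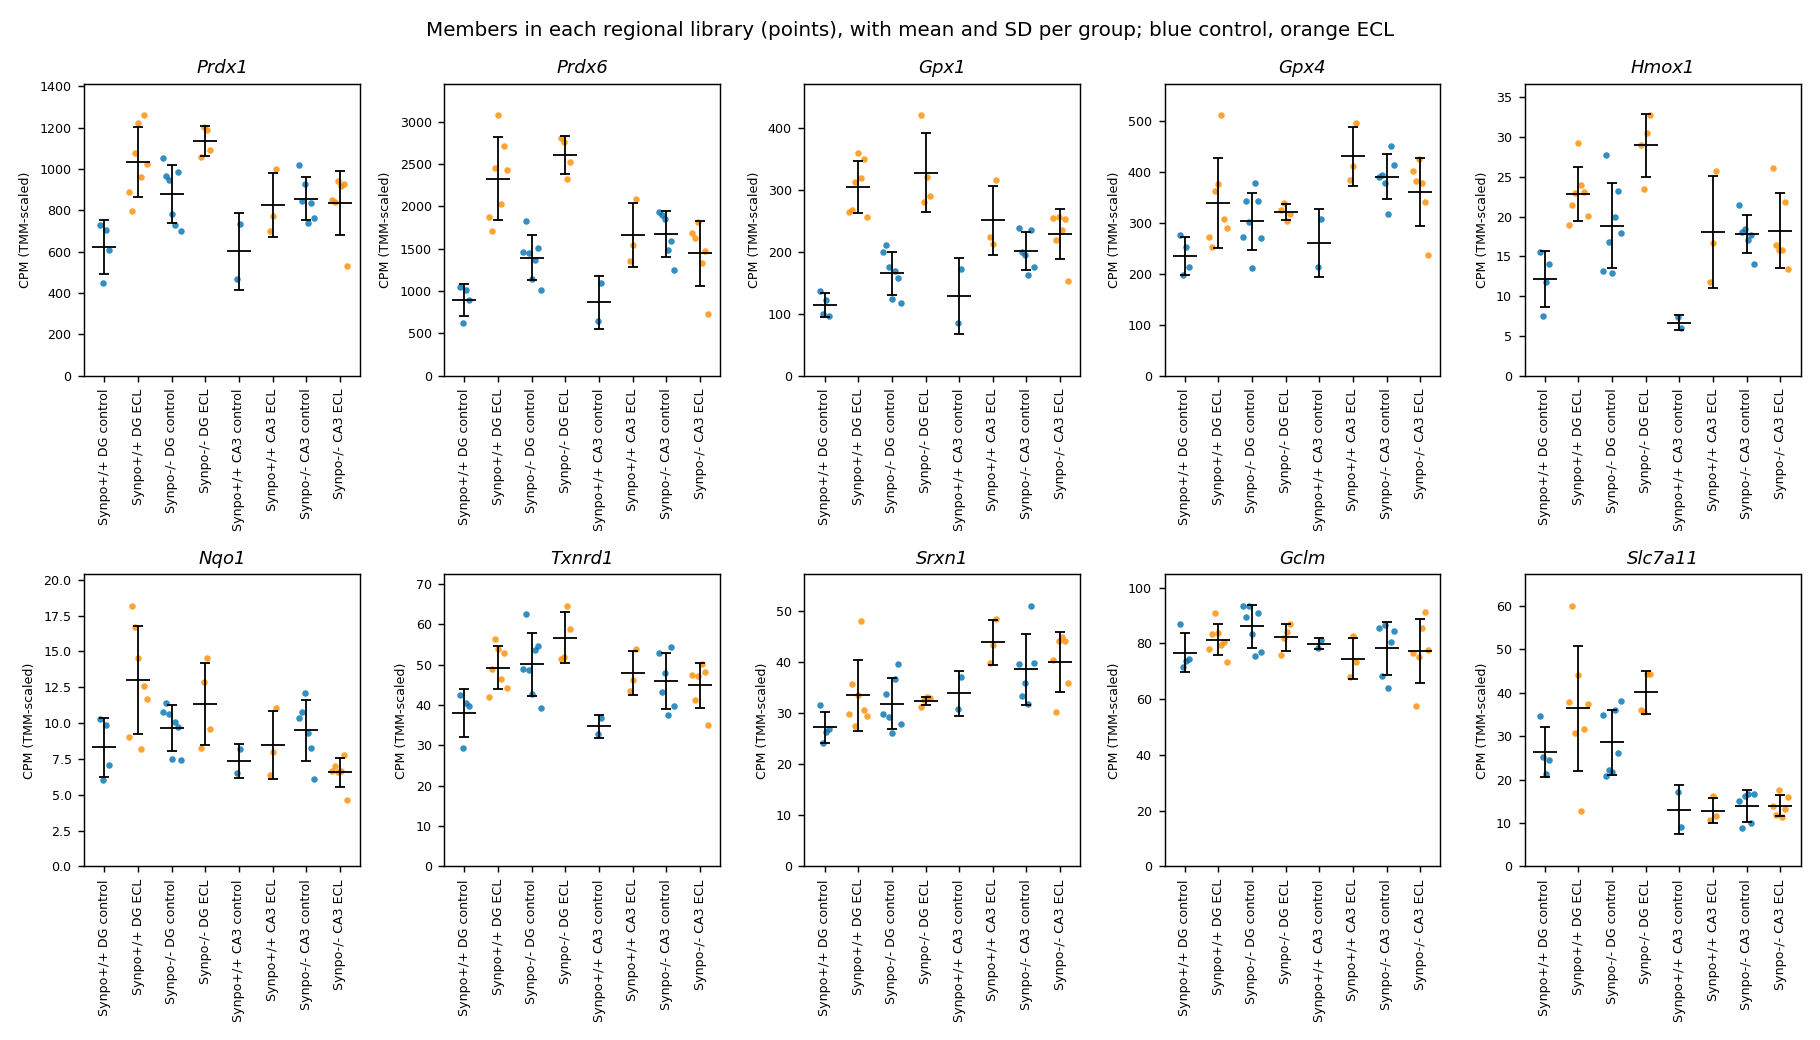
Levels of the 10 genes in the 39 regional libraries. Each panel plots TMM-scaled CPM (axis from 0) against group, with 1 point per library (blue control, orange ECL) and the mean with SD in black; in DG the ECL points of Gpx1 and Prdx6 lie above all control points of the same genotype, and Slc7a11 is higher in DG than in CA3 controls.

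In DG of Synpo+/+ cultures 4 members, Gpx1, Prdx6, Hmox1 and Prdx1, were higher after the lesion, and no member was called lower. This is 4 of 10 members, where 12.2% of all genes tested were called and 7.86% were called higher. Of all calls 1864 of 2886 were higher, and 839 of 2319 were once trends with gene length had been removed from the libraries. That removal moved the median of all genes by -0.14. The median log2 fold change over the members was 0.51. Gpx1 had 96.6, 100.2, 123 and 136 CPM in the 4 controls and 257 to 359.6 CPM (median 313) in the 7 ECL libraries. All ECL values were thus above all control values (log2 fold change 1.34, SE 0.127, adjusted p 2.92e-05). Prdx6 had 625, 896, 1011 and 1047 CPM in controls against 1707 to 3081 CPM (median 2429) after ECL, again without overlap (log2 fold change 1.30, SE 0.175, adjusted p 0.000450). Hmox1 had 7.47, 11.8, 14.01 and 15.5 CPM in controls and 18.96 to 29.3 CPM (median 22.9) after ECL (log2 fold change 0.82, SE 0.166, adjusted p 0.00688). The haem oxygenase was thus low in every library, but its groups were apart too. Prdx1 had 447, 606, 706 and 731 CPM in controls and 798 to 1261 CPM (median 1025) after ECL (log2 fold change 0.66, SE 0.149, adjusted p 0.0136). In all, 4 members had ECL values wholly above the controls, as did 8.81% of all genes. All 4 remained called without any 1 of the 11 libraries. Over 9 alternative settings the lowest log2 fold changes were 1.00 for Gpx1, 1.11 for Prdx6, 0.47 for Hmox1 and 0.44 for Prdx1. Hmox1 was called in 8 of these settings and the other 3 genes in 9. Without ECL replicate 5 the log2 fold changes were 1.31, 1.32, 0.80 and 0.66 for Gpx1, Prdx6, Hmox1 and Prdx1.

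The other 6 members did not pass the test in Synpo+/+ DG, and their groups overlapped. Over 9 alternative settings Gpx4 was called in 2, Nqo1 in 1, Slc7a11 in 1, and Txnrd1, Srxn1 and Gclm in 0. Gpx4 had a log2 fold change of 0.45 (SE 0.163, adjusted p 0.0762) and Nqo1 of 0.57 (SE 0.223, adjusted p 0.0954). Without ECL replicate 5 Nqo1 passed (log2 fold change 0.64, adjusted p 0.0337). Among the thioredoxin genes, Txnrd1 had 0.29 (SE 0.116, adjusted p 0.100) and Srxn1 0.22 (SE 0.137, adjusted p 0.265). The exchanger Slc7a11 had 0.39 (SE 0.283, adjusted p 0.340), and without ECL replicate 5, its lowest library, 0.52 (adjusted p 0.0585). Gclm had 71.4, 73.6, 74.3 and 86.9 CPM in controls and 73.3 to 91.00 CPM (median 80.6) after ECL (log2 fold change 0.01, SE 0.0949, adjusted p 0.955). Without ECL replicate 5 the adjusted p was 0.0759 for Gpx4, 0.0775 for Txnrd1, 0.510 for Srxn1 and 0.995 for Gclm. Over all libraries Gpx1 and Gclm thus stood at the upper and lower ends of the members' lesion values.

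In DG labelled Synpo-/- the same 4 genes were higher after ECL, 4 of 10 members beside 8.53% of all genes called and 5.17% called higher. Gpx1 had 117 to 211 CPM (median 169) in the 7 controls and 280.2, 289.9, 321 and 421 CPM after ECL (log2 fold change 1.01, SE 0.148, adjusted p 0.000532). Prdx6 had 1013 to 1829 CPM (median 1448) in controls and 2325, 2529.6, 2764 and 2805 CPM after ECL (log2 fold change 0.92, SE 0.118, adjusted p 0.000189). For both genes the groups were apart. Prdx1 had 699 to 1052 CPM (median 948) in controls and 1059.5, 1089.8, 1189.9 and 1203 CPM after ECL, just above the controls (log2 fold change 0.38, SE 0.105, adjusted p 0.0350), so that these 3 members lay wholly above the controls, beside 3.92% of all genes. Hmox1 had 12.9 to 27.8 CPM (median 17.9) in controls and 23.4, 29.1, 30.6 and 32.8 CPM after ECL, with an overlap of the groups (log2 fold change 0.63, SE 0.163, adjusted p 0.0227). Gpx1 and Prdx6 remained called without any 1 of the 11 libraries. Prdx1 was not called in 8 of 11 such cases, namely without control replicates 3, 4, 5 or 7 or any 1 of the ECL libraries, with an adjusted p of up to 0.0882. Hmox1 was not called without control replicate 3 or without ECL replicates 1, 3 or 4, with an adjusted p of up to 0.0708. Slc7a11, at 20.8 to 37.9 CPM (median 26.2) in controls and 35.6, 35.9, 44.3 and 44.4 CPM after ECL, was the uncalled member with the lowest adjusted p (log2 fold change 0.49, SE 0.170, adjusted p 0.0894), and it passed without control replicate 7 (adjusted p 0.0339). Over 9 alternative settings Gpx1 and Prdx6 were called in 9, Hmox1 in 8 (adjusted p up to 0.0922), Prdx1 in 4 (up to 0.201) and Slc7a11 in 4 (lowest 0.0224). The remaining 5 members had log2 fold changes from -0.06 for Gclm to 0.24 for Nqo1 with overlapping groups.

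**Figure D2:**
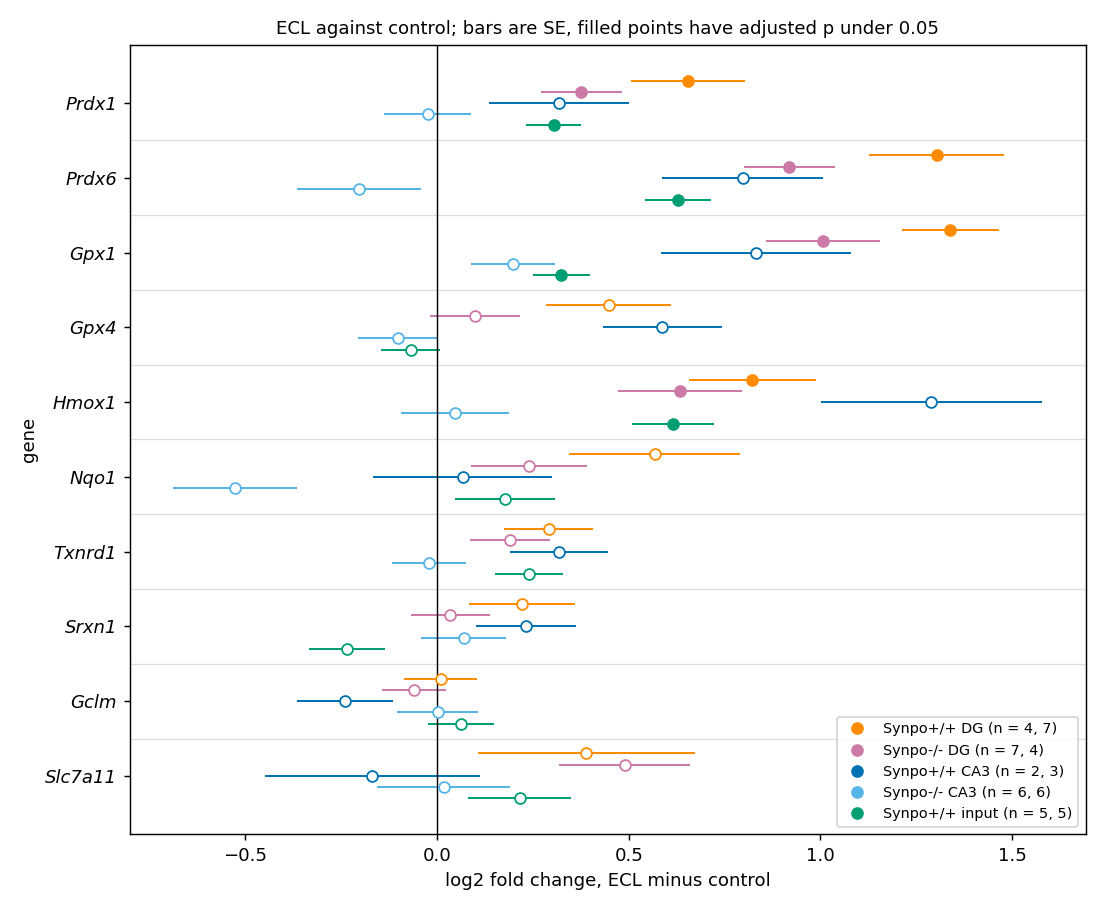
Lesion differences of the 10 genes in 5 comparisons. The horizontal axis is the log2 fold change of ECL against control with bars of 1 SE, and filled points mark an adjusted p under 0.05; Gpx1, Prdx6, Hmox1 and Prdx1 are filled in both DG comparisons and in the input, and no point of CA3 is filled.

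Glial markers were higher in the same DG libraries. In bulk tissue a change in the number of cells of a type and a change in RNA per cell cannot be told apart. Of 14 microglia markers, 14 were called higher after ECL in Synpo+/+ DG (median log2 fold change 1.17) and 11 in Synpo-/- DG (0.80). Of 10 astrocyte markers 7 (0.81) and 8 (0.70) were. The summed microglia markers had 769.7 to 1174 CPM in Synpo+/+ DG controls and 1929.9 to 2506 CPM after ECL, and 975 to 2249 CPM and 2089.8 to 2676 CPM in Synpo-/- DG. The summed astrocyte markers had 4416 to 5470.0 CPM and 7439 to 9719 CPM in Synpo+/+ DG, and 5022 to 6239 CPM and 7812 to 9541 CPM in Synpo-/- DG. Only the microglia sums in Synpo-/- DG overlapped between control and ECL, and no marker of these lists was at 0 in all regional libraries. Of 8 neuron markers 0 were called in Synpo+/+ DG and 1 was called lower in Synpo-/- DG, and of 10 oligodendrocyte markers 1 was called higher in each genotype. Synpo+/+ DG ECL replicate 5 was kept in these calls, which were not repeated without it. Its summed neuron markers had 9991 CPM, against 3688 to 5147 CPM in the other libraries of its group. Its summed oligodendrocyte markers had 2912 CPM, against 881 to 1333 CPM in the others. The part of the glial markers in the values of Gpx1, Prdx6, Hmox1 and Prdx1 was not tested.

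**Figure D3:**
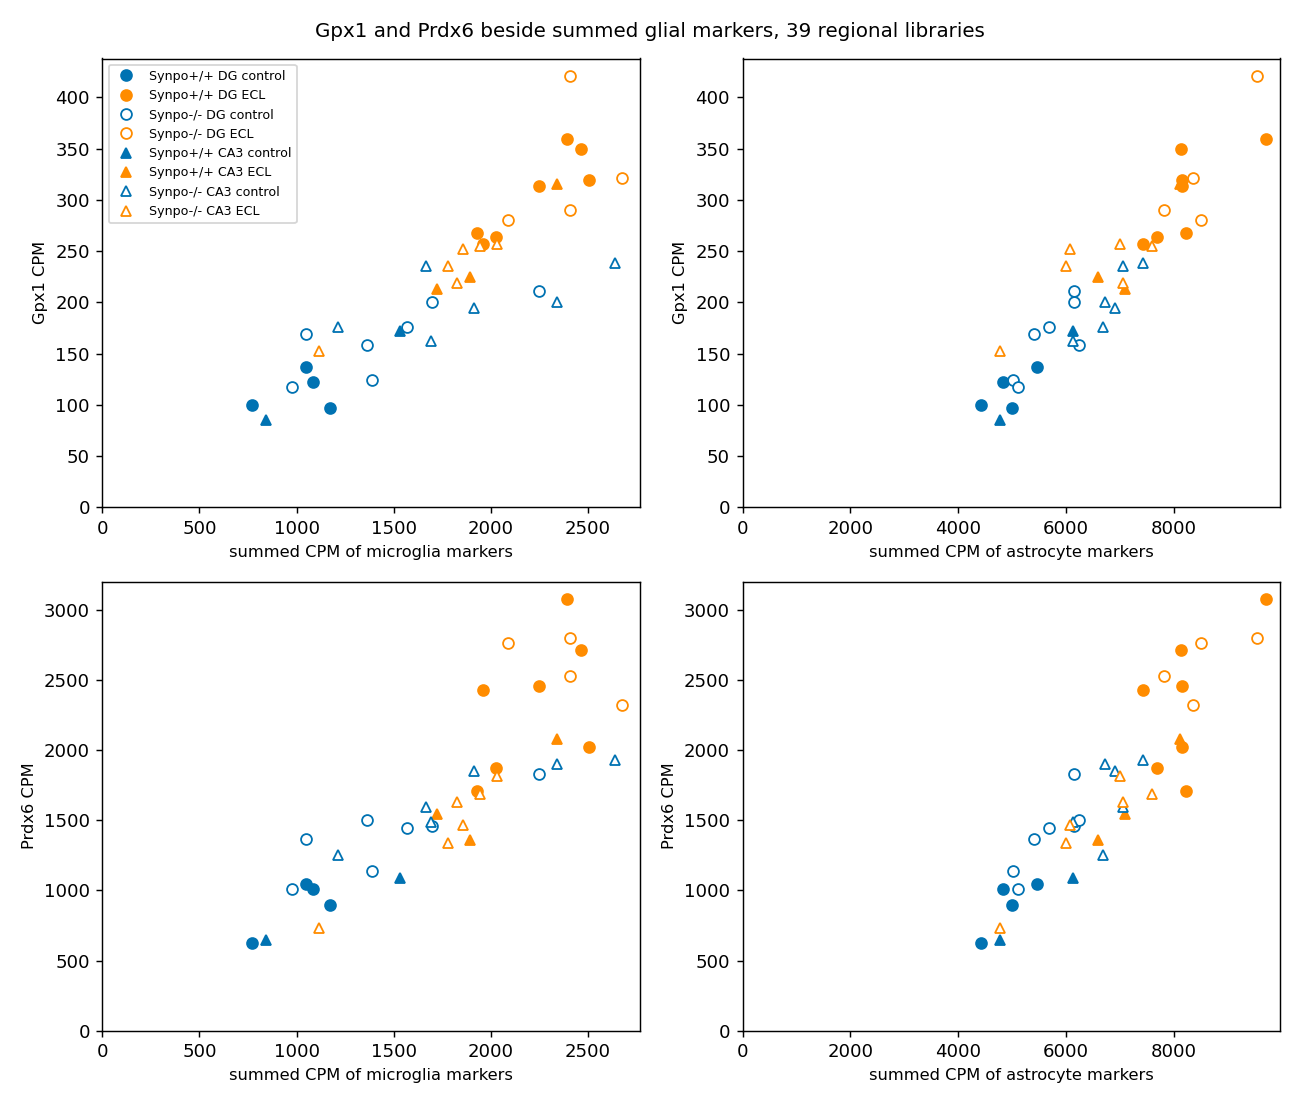
Gpx1 and Prdx6 beside glial markers in the 39 regional libraries. Each panel plots the CPM of 1 gene against the summed CPM of 14 microglia or 10 astrocyte markers, 1 point per library (circles DG, triangles CA3, filled Synpo+/+, open Synpo-/-, blue control, orange ECL); libraries with high marker sums also have high levels of both genes, and the DG ECL libraries lie toward the upper right.

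In CA3 no member was called in either genotype. In Synpo+/+ CA3, with 2 control and 3 ECL libraries, 0 of 10 members and 1.78% of all genes were called by edgeR, and 5 members had an unadjusted p under 0.05 beside 23.9% of all genes. Hmox1 had 6.01 and 7.34 CPM in controls and 11.7, 16.7 and 25.7 CPM after ECL (log2 fold change 1.29, SE 0.289, adjusted p 0.0543). Prdx6 had 648 and 1092 CPM against 1361, 1548 and 2084 CPM (log2 fold change 0.80, SE 0.210, adjusted p 0.0767). The groups of both genes were apart. Gpx1 had 85.3 and 172 CPM against 213, 225 and 315 CPM (log2 fold change 0.83, SE 0.248, adjusted p 0.0940), and Gpx4 213 and 308 CPM against 385, 412 and 496 CPM (log2 fold change 0.59, SE 0.155, adjusted p 0.0768). The ECL libraries of 6 members lay above both controls, as did those of 32.1% of all genes. The calls varied with the test. DESeq2 called Hmox1, Prdx6 and Gpx4, edgeR without a filter on low counts or with a term for sex also called Gpx1, and without control replicate 2 edgeR called Gpx1, Prdx6 and Gpx4 (adjusted p 0.0326 to 0.0364). Of the glial markers, 2 of 14 microglia and 0 of 10 astrocyte markers were called.

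With 6 libraries a group, CA3 labelled Synpo-/- had 0 of 10 members called, beside 0.0770% of all genes, by edgeR and 0 members by DESeq2, and 1 member with an unadjusted p under 0.05, beside 7.27% of all genes. That member, the quinone reductase gene Nqo1, had 6.10 to 12.1 CPM (median 9.85) in controls and 4.63 to 7.76 CPM (median 6.68) after ECL, with overlapping groups (log2 fold change -0.53, SE 0.162, adjusted p 0.462). Gpx1 had 162 to 239 CPM (median 198) and 152 to 257 CPM (median 244), a log2 fold change of 0.20 (SE 0.109). Prdx6 had 1254 to 1935 CPM (median 1724) and 735 to 1816 CPM (median 1549.6), a log2 fold change of -0.20 (SE 0.161). All 10 members overlapped between control and ECL here. Hmox1 had 14.03 to 21.5 CPM (median 17.9) and 13.5 to 26.1 CPM (median 16.1), a log2 fold change of 0.05 (SE 0.141). Of the microglia and astrocyte markers 0 were called, and 2 of 10 oligodendrocyte markers were called lower.

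Whether the lesion differences varied with genotype was tested as an interaction, and no member was called by edgeR in DG (0.00381% of all genes called) or in CA3 (0%). A negative value means a smaller lesion difference in the libraries labelled Synpo-/-. In DG 0 members had an unadjusted p under 0.05 (all genes 10.4%) and DESeq2 called 0, with interactions on the log2 scale of -0.37 (SE 0.210) for Gpx1, -0.42 (SE 0.218) for Prdx6, -0.23 (SE 0.250) for Hmox1 and -0.32 (SE 0.188) for Prdx1. Without Synpo+/+ DG ECL replicate 5 these were -0.36, -0.46, -0.22 and -0.33. In CA3 4 members had an unadjusted p under 0.05 (all genes 17.1%), namely Hmox1 with -1.28 (SE 0.331, adjusted p 0.138), Gpx4 with -0.72 (SE 0.223, adjusted p 0.152), Prdx6 with -1.03 (SE 0.333, adjusted p 0.160) and Gpx1 with -0.66 (SE 0.282, adjusted p 0.242). DESeq2 and edgeR without a filter each called Hmox1 in CA3 (adjusted p 0.0295 and 0.0305), and edgeR with the replicate block called Prdx6 (adjusted p 0.0468). The Synpo+/+ side of this comparison rests on 2 controls. The same 2 libraries also enter the Synpo+/+ CA3 lesion difference, the CA3 genotype difference and the Synpo+/+ region difference, so these values are not independent.

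Without a lesion, edgeR called no member between the genotypes (0.00413% of all genes called in CA3 and 0.0166% in DG), while 6 members in each region had an unadjusted p under 0.05, beside 16.4% and 15.5% of all genes. In CA3 controls Hmox1 had 6.01 and 7.34 CPM in Synpo+/+ and 14.03 to 21.5 CPM (median 17.9) in Synpo-/- (log2 difference 1.32, SE 0.193, adjusted p 0.0626). Prdx6 had 648 and 1092 CPM in Synpo+/+ and 1254 to 1935 CPM (median 1724) in Synpo-/- (0.86, SE 0.199, adjusted p 0.104). The groups of 5 members, these among them, were apart with Synpo-/- above, as were those of 12.9% of all genes. DESeq2 called Hmox1, Prdx6 and Gpx4 here, and edgeR called Hmox1 without Synpo-/- control replicate 4 or 6 and Prdx6 without replicate 6. In DG controls the log2 difference was 0.51 (SE 0.197, adjusted p 0.255) for Hmox1 and 0.53 (SE 0.137, adjusted p 0.207) for Prdx6, and all 10 members overlapped between genotypes. Prdx6 was called in DG by DESeq2 (adjusted p 0.0311) and by edgeR without Synpo-/- control replicate 4 (adjusted p 0.0408). Microglia markers had median log2 differences of 0.53 in CA3 and 0.43 in DG, with 0 of 14 called in either.

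The input libraries hold RNA of whole cultures and form a separate experiment of 5 control and 5 ECL lysates of Synpo+/+. The 4 genes called in DG were called higher here too, 4 of 10 members beside 5.61% of all genes called and 2.45% called higher. Prdx6 had 1679, 1779, 1875, 1897 and 2163 CPM in controls and 2388, 2959.6, 3015, 3018 and 3197 CPM after ECL (log2 fold change 0.63, SE 0.0858, adjusted p 0.00139). Hmox1 had 31.99, 33.7, 33.7, 34.6 and 39.9 CPM and 43.5, 50.2, 50.8, 55.1 and 67.9 CPM (log2 fold change 0.61, SE 0.107, adjusted p 0.00569). Both genes were higher in every ECL lysate than in any control. Gpx1 had 223, 245, 251, 252 and 283 CPM against 298, 299, 305, 314 and 360.0 CPM (log2 fold change 0.32, SE 0.0749, adjusted p 0.0232), and Prdx1 had 537, 554, 585, 604 and 617 CPM against 637, 689, 732, 764 and 773 CPM (log2 fold change 0.30, SE 0.0708, adjusted p 0.0243). The groups were apart for these 4 genes, as they were upward for 3.16% of all genes. Prdx6 and Hmox1 remained called without any 1 of the 10 libraries. Gpx1 and Prdx1 were not called without control replicate 2 or ECL replicate 2, nor was Prdx1 without ECL replicate 3, with adjusted p of up to 0.0655 and 0.0705. Of the other members, Srxn1 (-0.23, SE 0.0989, adjusted p 0.203) and Txnrd1 (0.24, SE 0.0888, adjusted p 0.138) had an unadjusted p under 0.05. Microglia markers were called higher in 6 of 14 cases (median 0.56), astrocyte markers in 1 of 10 (0.19), and 3 of 8 neuron markers were called lower.

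Between the regions, Slc7a11 had the largest log2 difference among the members in both genotypes. In controls labelled Synpo-/- it had 8.81 to 16.8 CPM (median 15.7) in the 6 CA3 libraries and 20.8 to 37.9 CPM (median 26.2) in the 7 DG libraries, with no overlap (log2 difference of DG against CA3 1.08, SE 0.192, adjusted p 0.000309). In Synpo+/+ controls it had 9.07 and 17.1 CPM in CA3 and 21.3, 24.5, 25.2 and 34.6 CPM in DG, again apart (1.01, SE 0.254, adjusted p 0.0322). Groups apart in this direction were found for 4.64% of all genes in Synpo-/- and 14.1% in Synpo+/+. The Synpo-/- difference remained called without any 1 of the 13 libraries. The Synpo+/+ difference was lost without CA3 control replicate 2 or DG control replicate 1, with an adjusted p of up to 0.341. Gpx4 was lower in DG than in CA3 in Synpo-/- controls, at 212 to 378 CPM (median 301) against 317 to 450.3 CPM (median 392), with overlap (-0.32, SE 0.0952, adjusted p 0.0181). Without CA3 control replicate 5 it was not called (adjusted p 0.0538). These were 2 of 10 members in Synpo-/- beside 25.5% of all genes called (13.1% higher and 12.5% lower in DG), and 1 of 10 in Synpo+/+ beside 5.39% (2.63% higher), so the share of members called was near that of all genes. Hmox1 in Synpo+/+ controls was higher in each DG library than in both CA3 libraries (0.87, SE 0.257, adjusted p 0.0711), and it was called by DESeq2 (adjusted p 0.0373) and without DG control replicate 2 (adjusted p 0.0110). Markers of several cell types were also called lower in DG of Synpo-/- controls, namely 10 of 10 oligodendrocyte, 4 of 8 neuron, 4 of 6 CA3 pyramidal, 5 of 10 astrocyte, 3 of 7 endothelial and 2 of 14 microglia markers, while 7 of 7 granule cell markers were higher. In Synpo+/+ controls 7 oligodendrocyte, 4 neuron, 3 CA3 pyramidal and 1 astrocyte marker genes were lower. The part of these markers in the value of Gpx4 was not tested. After ECL, Slc7a11 had 11.5 to 17.6 CPM (median 13.6) in CA3 and 35.6, 35.9, 44.3 and 44.4 CPM in DG of Synpo-/-, which did not overlap. In Synpo+/+ ECL libraries it had 10.8, 11.6 and 16.2 CPM in CA3 and 30.6 to 59.97 CPM in DG apart from replicate 5, the library with CA3-like Prox1, which had 12.9 CPM.

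The anti-synaptopodin precipitate was compared with input to ask which mRNAs are held with synaptopodin. Most members were lower in the coIP. In Synpo+/+ controls 7 of 10 were called lower and Slc7a11 higher (55.0% of all genes called, 25.5% lower and 29.6% higher), in Synpo+/+ ECL lysates 8 were called lower (58.3% called, 27.8% lower), and in Synpo-/- 6 were (31.4% called, 16.4% lower). Called lower in all 3 comparisons were 6 members, Gpx1, Gpx4, Prdx1, Prdx6, Hmox1 and Srxn1, and most of these calls depended on how trends with gene length and GC were treated. Of the 6, Prdx6 alone remained called lower in all 3 comparisons both with the length trend removed and with length and GC trends removed. With the length trend removed, Gpx4 was called higher in the coIP of Synpo+/+ controls (log2 fold change 0.22, adjusted p 0.0342). In ECL it was at 0.07 (adjusted p 0.591). Gpx1 was then at -0.02 in controls and -0.10 in ECL (adjusted p 0.863 and 0.509), and Srxn1 at -0.03 and 0.01 (0.835 and 0.942). Hmox1 was called in none of the 3 comparisons under either removal, with log2 fold changes of -0.17, -0.31 and -0.27 without the length trend (adjusted p 0.307, 0.120 and 0.172). Prdx1 was lost in all 3 with length and GC trends removed (adjusted p 0.0931, 0.0658 and 0.280). In Synpo-/- it was also lost without input replicate 1 or 2 or coIP replicate 2 (adjusted p up to 0.131), and Hmox1 without input replicate 2 (0.0839). In Synpo+/+ controls Gpx4 was lost without input replicate 1 or 2 or coIP replicate 1 or 3 (up to 0.0606), and Srxn1 without input replicate 1 or 2 or coIP replicate 2, 3 or 4 (up to 0.0915). The values that follow are those before any trend was removed. All coIP libraries lay below all inputs for 5 members in controls, 5 in ECL and 7 in Synpo-/-, beside 20.4%, 22.0% and 34.9% of all genes. Hmox1 had 31.99, 33.7, 33.7, 34.6 and 39.9 CPM in Synpo+/+ control inputs and 14.4, 18.1, 21.4, 21.7 and 28.3 CPM in the coIP (log2 fold change -0.69, SE 0.143, adjusted p 0.000871). Prdx1 had 306, 348, 387, 404 and 425 CPM in these coIP libraries, all below the inputs (log2 fold change -0.59, SE 0.0896, adjusted p 6.90e-05). In ECL lysates Hmox1 had a log2 fold change of -0.91 (SE 0.172, adjusted p 0.000454) and Prdx1 of -0.82 (SE 0.192, adjusted p 0.00217), and for both the coIP libraries lay below all inputs. In Synpo-/- Hmox1 had 35.6 and 38.5 CPM in input and 23.5 and 24.4 CPM in coIP (log2 fold change -0.60, SE 0.148, adjusted p 0.00936), and Srxn1 56.5 and 58.1 CPM against 27.9 and 34.6 CPM (log2 fold change -0.84, SE 0.153, adjusted p 0.00172). Microglia markers were called lower in the coIP in 5, 10 and 6 of 14 cases, and their part in these values was not tested.

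Txnrd1 and Slc7a11 were not called lower in any of these comparisons. Txnrd1 had log2 fold changes of 0.04 (SE 0.0854), 0.10 (SE 0.111) and 0.17 (SE 0.137) in Synpo+/+ control, Synpo+/+ ECL and Synpo-/-. Slc7a11 was higher in the coIP of Synpo+/+ controls, at 26.6, 36.3, 44.1, 45.4 and 46.5 CPM against 22.9, 29.5, 30.3, 30.8 and 30.9 CPM in the input (log2 fold change 0.51, SE 0.139, adjusted p 0.00626), with overlap because of coIP replicate 3. With the length trend removed it was at 0.03 (adjusted p 0.897), and it was also not called with length and GC trends removed or with all groups in one fit. In Synpo-/-, which lacks the antibody's target by its label, it had 23.2 and 38.2 CPM in the coIP and 21.9 and 25.7 CPM in the input (log2 fold change 0.40, SE 0.214, adjusted p 0.173). In ECL lysates it had 17.3, 20.3, 41.2, 45.9 and 49.7 CPM in the coIP and 23.6, 29.7, 37.9, 38.5 and 38.9 CPM in the input (log2 fold change 0.10, SE 0.255, adjusted p 0.749). Slc7a11 and Txnrd1 have the longest merged exons of the members, with 13922 and 7086 bases, against 1441 bases for Gpx1. The difference between genotypes in coIP over input was tested directly for Synpo+/+ control lysates against Synpo-/- lysates, and Synpo+/+ ECL lysates were left out. The labels give no lesion state for the Synpo-/- lysates, so lesion state cannot be told apart from genotype. With lysates paired by the replicate block, 0 members and 61 of all genes were called. Without pairing edgeR called 0 of 10 members and 0% of all genes, and DESeq2 0 members. Srxn1 with -0.49 (SE 0.210, adjusted p 0.630) and Gpx4 with -0.42 (SE 0.191, adjusted p 0.655), both lower in the Synpo-/- coIP, had an unadjusted p under 0.05 there, as did 7.33% of all genes. For Slc7a11 this difference between genotypes ran from -0.08 to 0.05 over 8 alternative settings and was called in 0 of them.

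**Figure D4:**
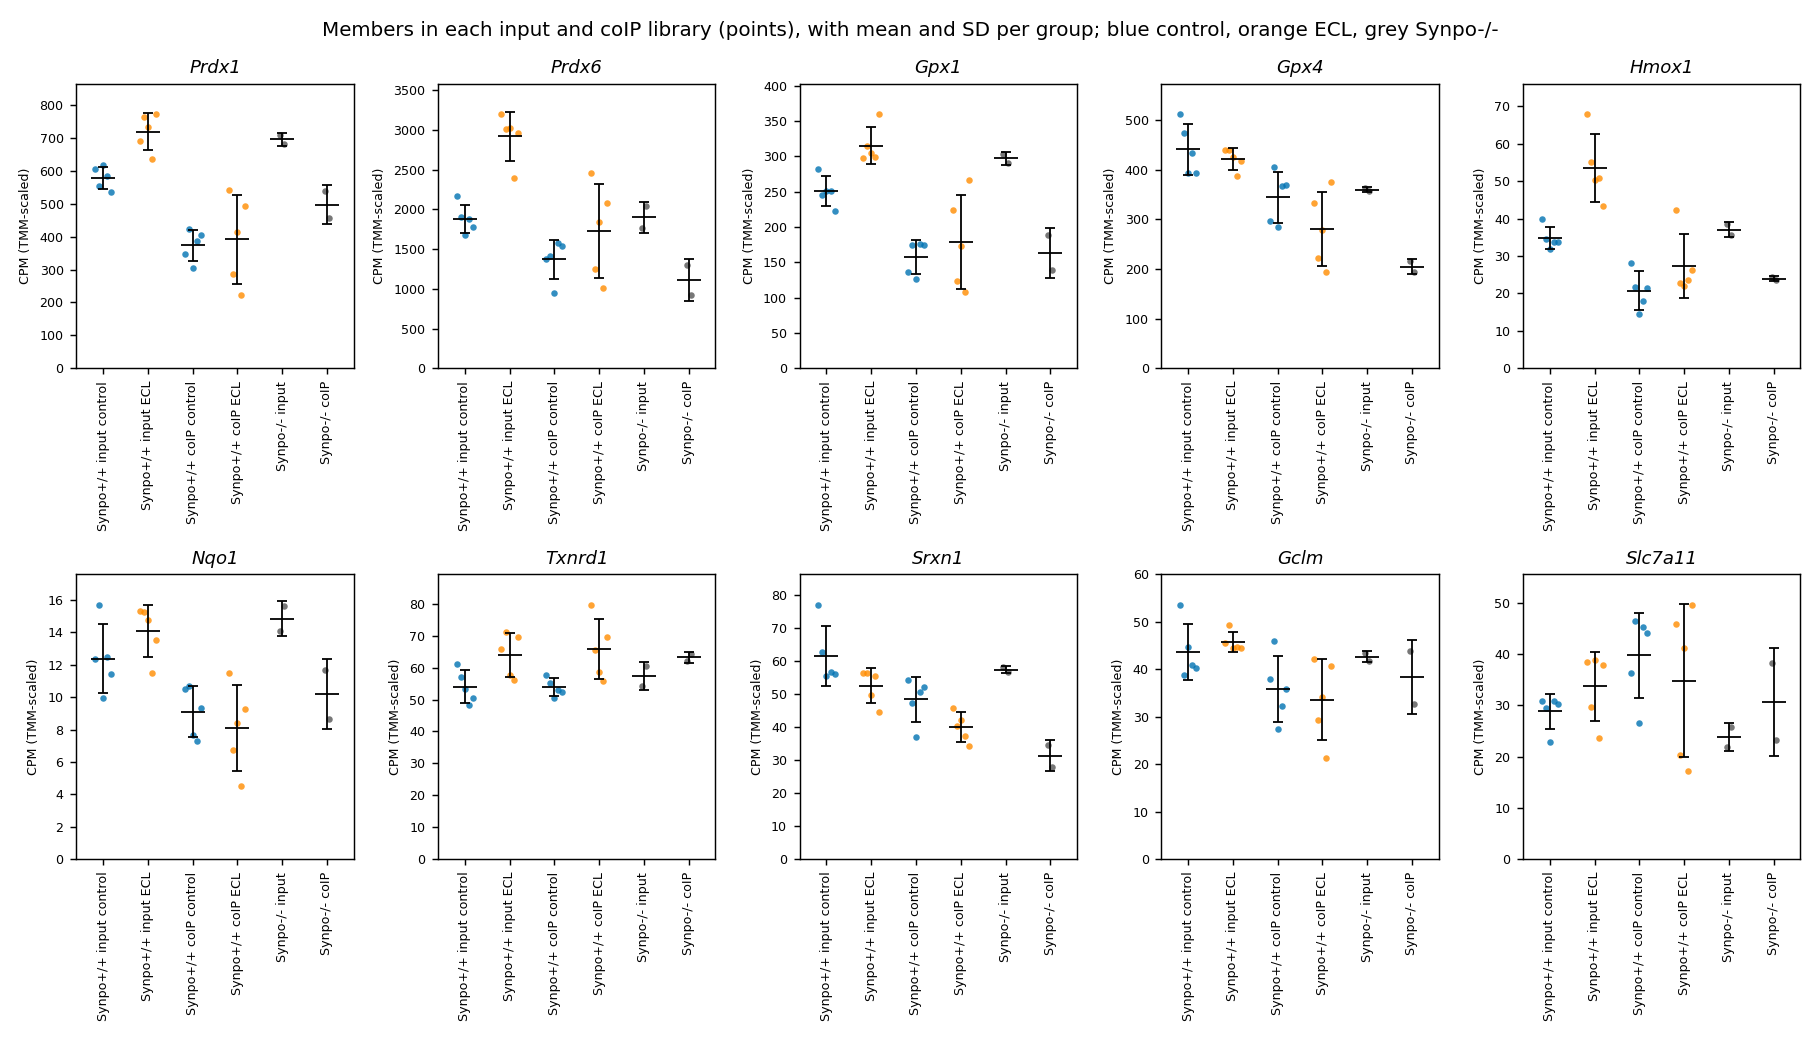
Levels of the 10 genes in the 24 input and coIP libraries. Each panel plots TMM-scaled CPM (axis from 0) against group, with 1 point per library (blue Synpo+/+ control, orange Synpo+/+ ECL, grey Synpo-/-) and the mean with SD in black; input points of Prdx6 and Hmox1 after ECL lie above those of controls, and coIP points of Gpx1, Prdx1 and Hmox1 lie below the inputs of the same condition.

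The wider pathway was followed through 66 further genes of Nrf2 regulation, glutathione, peroxidases and thioredoxins, haem and iron, NADPH supply and detoxification. In Synpo+/+ DG 16 of them were called higher after ECL and 0 lower (median log2 fold change 0.35), beside 7.86% of all genes called higher. Pgd, an NADPH-producing enzyme of the pentose phosphate pathway, went from 7.97 ± 1.36 to 16.3 ± 1.81 CPM (0.95, SE 0.135, adjusted p 0.000628). Gpx7, a peroxidase of the endoplasmic reticulum (0.81, SE 0.128, adjusted p 0.00138), and Taldo1, transaldolase (0.69, SE 0.115, adjusted p 0.00192), followed. By group these were 6 of 19 peroxidase, thioredoxin and superoxide genes, 3 of 7 NADPH genes, 3 of 9 haem and iron genes, 2 of 16 glutathione genes, 1 of 5 detoxification genes and 1 of 10 Nrf2 regulators. In Synpo-/- DG 7 were called higher and 2 lower (median 0.10), beside 8.53% of all genes called and 5.17% called higher. Pgd (0.62, SE 0.124, adjusted p 0.00500) and Prdx4, the peroxiredoxin of the endoplasmic reticulum (0.44, SE 0.0992, adjusted p 0.0105), were among the former. Tfrc, the transferrin receptor, was among the latter and went from 383 ± 55.1 to 227 ± 46.9 CPM (-0.75, SE 0.125, adjusted p 0.00153). In Synpo+/+ CA3, where 1.78% of all genes were called, 3 of the 66 were higher: Fth1, the ferritin heavy chain (2249 ± 445 to 5220.1 ± 763 CPM, 1.06, SE 0.164, adjusted p 0.0270), the glutaredoxin Glrx2 (0.67, SE 0.123, adjusted p 0.0357) and Slc3a2, the partner chain of Slc7a11 (0.65, SE 0.137, adjusted p 0.0473). In Synpo-/- CA3 edgeR called 0. In the input 2 were called higher and 7 lower, with 5.61% of all genes called, 2.45% higher and 3.16% lower. Ftl1, the ferritin light chain (0.43, SE 0.0845, adjusted p 0.0114), was among the former and Sqstm1, which binds Keap1 (-0.80, SE 0.146, adjusted p 0.00765), among the latter.

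Lists beside the pathway are read against the same shares of all genes. Of 13 amino acid stress genes 3 were called higher in Synpo+/+ DG, and in Synpo-/- DG 2 were called higher and 1 lower. Phgdh, the first enzyme of serine synthesis, went from 17.5 ± 4.18 to 31.6 ± 4.36 CPM in Synpo-/- DG (0.86, SE 0.150, adjusted p 0.00195) and was also called higher in the input (0.46, SE 0.0932, adjusted p 0.0137). The gene called lower was Ddit3, a stress transcription factor (-0.63, SE 0.137, adjusted p 0.00834). Of 12 other selenoprotein genes 2 were called higher in Synpo+/+ DG, and 1 higher and 2 lower in Synpo-/- DG. All genes were called higher at 7.86% in Synpo+/+ DG and 5.17% in Synpo-/- DG. Between regions of Synpo-/- controls, Gpx3, the secreted glutathione peroxidase, went from 304 ± 76.95 to 101 ± 36.2 CPM between CA3 and DG (-1.55, SE 0.184, adjusted p 3.52e-06), and Bach1, the repressor of Hmox1, from 15.8 ± 1.30 to 22.04 ± 2.18 CPM (0.53, SE 0.0891, adjusted p 0.000177). In the coIP 30, 34 and 22 of the 66 were called lower in Synpo+/+ control, Synpo+/+ ECL and Synpo-/-, and 7, 5 and 3 higher. Of all genes 25.5%, 27.8% and 16.4% were called lower, and 5389 of 18222, 5557 of 18229 and 3138 of 20892 higher. These counts, and the values of Glrx that follow, are those before any trend with gene length or GC was removed. They were not repeated with these trends removed. Glrx, the cytosolic glutaredoxin, was lower in all 3 (-1.42, SE 0.0950, adjusted p 2.33e-07, -1.67, SE 0.136, adjusted p 1.51e-06 and -1.38, SE 0.142, adjusted p 0.000183).

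Across the 39 regional libraries, genes with the most similar pattern to each member were found by Pearson correlation of log2 CPM among 14246 genes with a mean count of at least 50. Libraries share groups, depth and cell makeup, so these values are a description. Gpx1 was closest to Tspo, Cd63 and Ctsh (0.97, 0.95 and 0.95), and Prdx6 to the complement gene C1qb (0.95), Plcd4 and Rac2. Prdx1 was closest to Sat1 (0.98), Atp6v0e and Mgst1. Srxn1 was closest to Hspa4 (0.92), Gpx4 to Eri3 (0.95) and Txnrd1 to Ftl1 (0.89). Slc7a11 was closest to Adcyap1r1 (0.89), Hmox1 to Cdk4 (0.87), Gclm to Fam49b (0.84) and Nqo1 to Pla2g7 (0.82). With group means removed the value was 0.58 for Slc7a11 and Adcyap1r1 and 0.89 for Gpx1 and Tspo. No gene was the nearest to more than 1 member.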

How the data were processed

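Counts of 63 libraries in 14 groups were used, and groups were taken from the sample labels. Synpo-/- inputs are numbered here by the preparation named in their titles, which give the biological replicate numbers in the reverse order. The deposited values are raw counts per gene: adapters were trimmed (cutadapt 3.5), reads were aligned by the authors to mm10 (GRCm38) with STAR 2.7.8a, and featureCounts 2.0.1 assigned them to GENCODE exons without regard to strand. All libraries were poly(A) libraries of a low-input kit with amplification of the cDNA.

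Each of 15 comparisons was fitted on the whole table with edgeR 4.0.16 in R 4.3.3, using only its own groups, the quasi-likelihood test, filterByExpr and TMM factors, with Benjamini-Hochberg adjustment over all genes tested. Fold changes are on the log2 scale. The sampling precision of a value depends on the gene's own count as well as on the depth of its library (totals are given above). No pair of libraries of a group agreed within sampling noise (130 pairs, lowest chi-square per degree of freedom 7.49). CPM used a prior count of 2 on the log2 scale for correlations. Alternatives were DESeq2 1.42.0, other size factors (RLE), no filter, a mean normalized count over 300, removal of trends with gene length and GC (lowess, span 0.3, genes with a mean count of at least 50), a replicate block, a term for sex (regional lesion comparisons only), all groups in one fit, and leaving out each library in turn. The code was tested on simulated counts.

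All 10 members are named in every comparison, as are up to 3 called genes per direction with the smallest p from the other lists (not all are described), and the 3 genes most correlated with each member. The members and lists were chosen with earlier results of these data known. CoIP and input libraries of the same number come from the same lysate in Synpo+/+, and their deviations from the group means correlated in 5 of 5 pairs of control (r 0.305 to 0.640) and 5 of 5 of ECL (0.158 to 0.624).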

Additional observations from a re-analysis of the deposited data

Results flagged for a closer look

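Each member was searched in each group of 4 to 10 libraries for a lowest or highest library whose gap to the next was large against the group's range (Dixon's criterion at 95%). Of 100 such groups 8 met it, where chance gives about 5. In CA3 ECL labelled Synpo-/-, replicate 6 was the lowest library for 7 members, and 3 of them met the criterion. Gpx1 had 152 CPM against 219 to 257 CPM in the others, Prdx1 had 533 CPM against 842 to 940.4 CPM, and Nqo1 had 4.63 CPM against 6.60 to 7.76 CPM. The other members for which it was lowest were Gpx4, Prdx6, Hmox1 and Txnrd1. This library also had the lowest marker sums in its group for microglia (1118 CPM), astrocytes (4782), neurons (4917), oligodendrocytes (1258) and CA3 pyramidal cells (365), and their part in these values was not tested.

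Srxn1 had 48.02 CPM in Synpo+/+ DG ECL replicate 5, the library with CA3-like Prox1, against 27.6 to 35.7 CPM in the others. Among Synpo+/+ inputs, Gpx1 had 360.0 CPM in ECL replicate 5 (others 298 to 314 CPM), Gclm had 49.4 CPM in ECL replicate 2 (others 44.5 to 45.5 CPM) and Slc7a11 had 22.9 CPM in control replicate 3 (others 29.5 to 30.9 CPM). Hmox1 had 42.4 CPM in Synpo+/+ coIP ECL replicate 1 against 22.0 to 26.2 CPM in the others.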

How the results depend on the processing

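Of the values recomputed for the 37 cases of a member called in a comparison, 566 kept direction and side of the threshold, 82 lost the call and 6 changed sign. Members that gained a call are not in this tally. The number of members called stayed within 1.5 times in 250 recomputations and moved further in 39, and causes were not tested. In Synpo+/+ DG it was 4 in most settings, Gpx1, Prdx6 and Prdx1 were called in all 9 alternatives, and Hmox1 was lost with length and GC trends removed (0.47, adjusted p 0.0581). Removing the length trend moved the median of all genes by -0.14 there. Relative to that median Gpx1 had 1.24, Prdx6 1.29, Hmox1 0.71 and Prdx1 0.58, against 1.34, 1.31, 0.83 and 0.66 before. In Synpo+/+ CA3 the median moved by -0.13, and the share of higher calls over all genes went from 336 of 397 to 44 of 66 (length) and 39 of 76 (length and GC). It went from 11 of 16 to 14 of 25 (length) in Synpo-/- CA3.

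In Synpo+/+ CA3, where 0 members were called, DESeq2 called 3, and no filter, the replicate block and the sex term 4 each. In the input, 2 of 4 members were called with the replicate block and with all groups in one fit. Between regions of Synpo+/+ 2 members were called by DESeq2, without a filter and with the length trend removed, and 0 with all groups in one fit. Between genotypes in CA3 DESeq2 called 3, no filter 4, all groups in one fit 1 and the replicate block 5, and in DG DESeq2 called 1. Calls over all genes moved with them, from 1 to 834, 1022, 19 and 2232 in CA3 in these settings, and from 4 to 259 in DG. For the interaction in CA3 DESeq2, no filter and the replicate block called 1 member each, and 383, 160 and 154 of all genes where 0 had been called. In coIP over input of Synpo+/+ 4 members were called with the length trend removed and 3 with length and GC in controls, and 3 and 2 in ECL; in Synpo-/- 3 were with all groups in one fit. There, with the length trend removed, the log2 fold change of Gpx4 was 0.22 in controls, where it was called higher, and 0.067 in ECL, of Nqo1 0.18 in controls and of Srxn1 0.011 in ECL, and with length and GC removed that of Nqo1 was 0.28 and 0.016. Same-numbered regional libraries are not described as paired, and between DG and CA3 of Synpo-/- controls 5 of 6 such pairs correlated above 0.1 (r 0.0681 to 0.435), where the block called 6065 genes against 5467. The replicate block, which pairs lysates in Synpo+/+, left 8 members called in controls and in ECL.

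Without 1 library at a time, the number called ranged from 0 to 3 in Synpo+/+ CA3, 2 to 4 in Synpo-/- DG, 2 to 4 in the input, 0 to 2 between regions of Synpo+/+, 1 to 3 between regions of Synpo-/-, 0 to 2 between genotypes in CA3, 0 to 1 in DG, and 5 to 8 in coIP of Synpo+/+ controls (5 without coIP replicate 3 or input replicate 2). Over all genes, calls in Synpo+/+ CA3 ranged from 7 to 2716 over the alternatives and were 0 without ECL replicate 1. Calls in Synpo+/+ DG ranged from 1399 to 4305 and were 999 without control replicate 4, those in Synpo-/- DG ranged from 662 to 2627 and were 1118 without ECL replicate 1, and those in the input ranged from 656 to 1676 and were 358 without control replicate 2. Groups of 2 libraries, in Synpo+/+ CA3 controls and in both Synpo-/- fractions, limit what these comparisons can show.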
